A study of Homo sapiens with 54 samples.

Results

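Cells of the breast cancer line MDA-MB-231 were compared after 24 h with CKI and after 24 h without treatment. CKI (compound kushen injection) is an aqueous extract of medicinal plant roots that contains many alkaloids and other compounds. The comparison used 6 of the 54 RNA-seq libraries of the series, the 3 labelled CKI and the 3 labelled untreated (UT) at 24 h, all of them of the batch named Batch1. CKI was given at 2 mg/ml, and every library came from cells grown in the same serum-containing medium. No library is labelled as a vehicle control, so CKI was compared with untreated cells only and an effect of the vehicle was not tested. The cells are of 1 line, so that the spread between replicates is not a spread between tumours. The other libraries held 48 h samples and mixtures of fractions or named compounds of CKI, and of these only the 48 h CKI and untreated libraries of Batch1 are used here, for the comparison of time points. Genes of the migration, adhesion and actin sets of the study were not sought out, though some of them, such as CDH1 and CCND1, are named below.

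Cells that meet a mixture of plant compounds can respond through several known systems. The aryl hydrocarbon receptor (AHR) binds flat aromatic molecules and switches on the cytochromes that oxidise them. NRF2 responds to electrophiles and oxidants with enzymes that make glutathione and NADPH, and the unfolded protein response and the ATF4 pathway answer to protein-folding stress and lack of amino acids. Proliferating lines such as MDA-MB-231 also carry a large set of transcripts for DNA replication and mitosis, which is made mainly in cycling cells.

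The total count per library was between 18649291 and 24122549, and the table held 27978 genes. CPM below are counts divided by the TMM-scaled library size, so that each value is relative to the other transcripts of its library. All 9 genes listed as markers of MDA-MB-231 were counted in every library, with a summed level of 5812 to 6077 CPM in untreated and 4017 to 4252 CPM in CKI libraries. Of 11 luminal epithelial markers 8 were tested, 2 rose and 4 fell, and the receptors ESR1 and PGR had too few counts for a test. The 5 genes listed for HEK-293, another line named in the labels, summed to at most 0.107 CPM, and the fibroblast list, used because the labels also name fibroblasts (HFF), summed to 57.7 to 65.2 CPM in untreated and 27.8 to 50.9 CPM in CKI libraries, with COL1A2 its only DE member.

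CKI replicate 1, whose column in the table carries no replicate number, lay apart from the other libraries. Its correlation with CKI replicates 2 and 3 was 0.980 and 0.975 (log-CPM, across genes of 1 library pair), whereas replicates 2 and 3 correlated at 0.993 and the untreated libraries at 0.992 or above. Across the 880 genes that differed over 2-fold between untreated cells of the labels' 2 batches at 48 h, its deviation from replicates 2 and 3 followed the batch 2 minus batch 1 difference with a slope of 0.659. The slopes of the 3 untreated libraries were between -0.03 and 0.04, and those of CKI replicates 2 and 3, whose reference includes replicate 1, were -0.313 and -0.346. The immediate early genes FOSB, FOS and EGR1 stood out upward in it, with EGR1 at 301 CPM against 69.6 and 68.1 CPM in CKI replicates 2 and 3, and so did ATF3 and LOC284454. ALPP (3.78 against 54.0 and 59.0 CPM) and CST1 (72.3 against 610.4 and 708 CPM) stood out downward.

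Globin transcripts separated the same library without any overlap. HBA1, HBA2 and HBB together had 2059, 2789 and 3609 counts in the untreated libraries and 3234 and 2285 in CKI replicates 2 and 3, but 19 in CKI replicate 1. Of the 18 libraries of batch 1 at 24 h, 14 had over 100 globin counts and 4 had fewer, 1 of them this library. The 24 h table columns without a replicate number were 3, and all 3 were among these 4. Whether they were prepared apart from the others was not tested. All 18 libraries of batch 1 at 48 h and all 18 of batch 2 had at most 87. HBA1 and HBA2 are near-identical copies whose reads cannot be divided with confidence, so the sum is given. What the globin counts come from was not tested. Because of these differences every result below was also computed without CKI replicate 1.

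**Figure D1:**
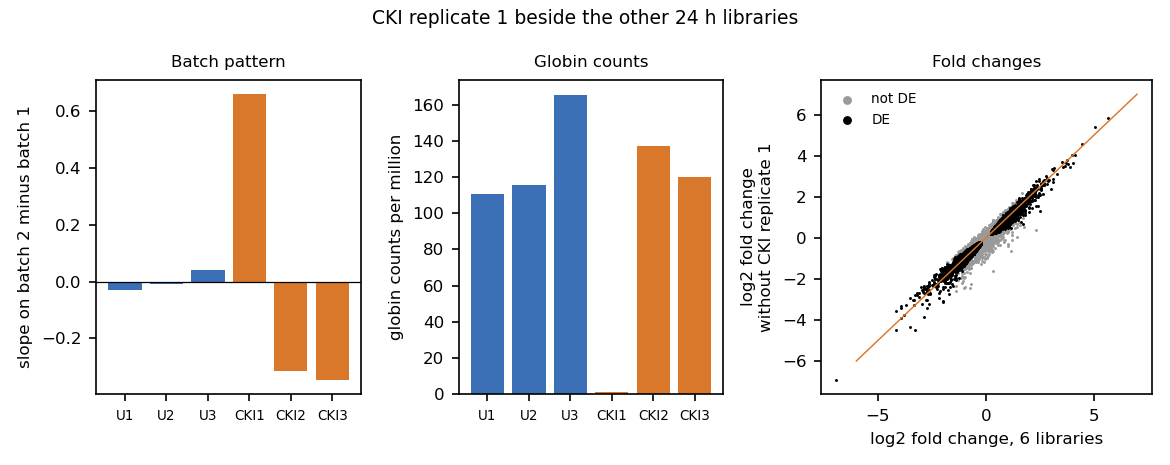
The left panel plots, for each 24 h library (U, untreated; CKI), the slope of its log2 deviation from the other replicates on the batch 2 minus batch 1 difference over 880 genes, and the middle panel the summed CPM of HBA1, HBA2 and HBB by total count. The right panel sets each gene's log2 fold change without CKI replicate 1 against that from 6 libraries, with the line of equality. CKI replicate 1 has a slope of 0.659 and almost no globin counts, and the DE genes keep their direction without it.

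After 24 h with CKI, 5512 of 14245 genes tested (38.7%) differed from untreated cells, 2756 higher (19.3%) and 2756 lower (19.3%). A gene was called differentially expressed (DE) at an adjusted p under 0.05 by the quasi-likelihood test of edgeR, with Benjamini-Hochberg adjustment over all genes tested, and all adjusted p-values below are from this test. Without CKI replicate 1 the numbers were 3819 higher (26.5% of 14410 tested) and 3817 lower (26.5%). Of the 5512 genes, 5469 were called both ways and all of these in the same direction. A change of 1 log2 unit or more was reached by 604 DE genes that rose (4.24%) and 753 that fell (5.29%), and a change of 2 log2 units or more by 104 and 110. The median log2 fold change over all genes tested was 0.01 and the median absolute value 0.34. Genes that rose held 16.1% of all counts in untreated and 25.5% in CKI libraries. The 3 CKI values lay above all 3 untreated values in 3848 genes (27%) and below them in 3879 (27.2%). These shares are the background for the counts of each gene group below, and an exact permutation test on 3 against 3 libraries could not go below p = 0.1 for any gene alone.

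Genes were ranked by log2 fold change if their mean level was 10 CPM or more and the groups did not overlap. They also had to be DE with and without CKI replicate 1. The largest rise was that of CYP1A1, the cytochrome that oxidises polycyclic aromatic compounds. Its level was 1.5, 1.32 and 1.60 CPM in the untreated libraries and 51.3, 86.8 and 83.3 CPM with CKI. The lowest CKI library, replicate 1, lay far above the highest untreated one, and the log2 fold change was 5.65 ± 0.26 (SE, n = 3 and 3, adjusted p = 4.61e-05). CYP1B1, a related cytochrome, went from 112, 124 and 132 CPM to 897, 496 and 466 CPM. All 6 of the 8 listed AHR targets that had enough counts for a test rose, with a median log2 fold change of 2.10, and 1.76 without CKI replicate 1. The others were ALDH3A1, an aldehyde dehydrogenase (3.05), AHRR, the repressor of the receptor (1.87), TIPARP, an ADP-ribosyltransferase (1.67), and NQO1, a quinone reductase also listed under NRF2 (1.00). CYP1A2 and UGT1A6 had too few counts for a test.

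CYP1A1 is shown with its promoter window because it was the gene with the largest rise in this list. The windows printed here are from RefSeq on build GRCh38.p14 (the counts were made on hg19) and run from 250 bases before to 50 after the gene's start. Capitals mark the AHR core motif GCGTG, searched on both strands. It was present in all 4 listed members that had a window and in 50.4% of the 11230 tested genes with one. The CYP1A1 window is chr15:74725479-74725778, minus strand.
CYP1A1: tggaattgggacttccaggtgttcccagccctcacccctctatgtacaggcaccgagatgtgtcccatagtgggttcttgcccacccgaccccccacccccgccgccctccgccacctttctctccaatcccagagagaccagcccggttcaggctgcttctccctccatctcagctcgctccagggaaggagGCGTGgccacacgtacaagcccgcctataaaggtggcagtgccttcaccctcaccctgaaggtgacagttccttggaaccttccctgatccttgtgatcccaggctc

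Genes of the antioxidant response rose as a group. Of 22 NRF2 targets tested, 18 rose and none fell, with a median log2 fold change of 1.02, and all 22 rose without CKI replicate 1. SLC7A11, which imports cystine for glutathione synthesis, went from 24.4, 24.6 and 28.1 CPM to 202, 114 and 107 CPM. SRXN1, which repairs oxidised peroxiredoxins, went from 102, 106 and 105 CPM to 629, 464 and 444 CPM, a log2 fold change of 2.29 ± 0.14 (SE, adjusted p = 6.36e-05). The groups did not overlap in either gene, which the rule for naming them required. CKI replicate 1 was the highest library in both. Both subunits of glutamate-cysteine ligase, the entry step of glutathione synthesis, were among the genes that rose, GCLC by 1.47 and GCLM by 1.71. TXNRD1, a thioredoxin reductase, rose by 1.26 and HMOX1, the haem-degrading oxygenase, by 1.04 on the log2 scale. The 4 members not called with 6 libraries were AKR1C1, AKR1C2, TXN and TKT. For AKR1C1, a ketosteroid reductase, the CKI values were 5.90, 47.3 and 51.7 CPM against 10.3, 11.5 and 10.5 CPM, so that CKI replicate 1 lay below the untreated libraries and the other CKI libraries far above them.

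Iron genes shared some of these members. Among 13 genes of iron handling and ferroptosis 6 rose and none fell, with a median of 0.32. FTL and FTH1, the chains of the iron store ferritin, were among the 5 genes with the largest gain in CPM of all genes tested. FTL had 2179, 2123 and 1870 CPM without and 6253, 4468 and 5249 CPM with CKI, a log2 fold change of 1.37, and FTH1 rose by 0.96. Both have many processed pseudogenes, so their counts are less certain. The pentose phosphate pathway, which supplies NADPH, was mixed, with 3 of 7 enzymes higher, among them TALDO1 (0.56) and PGD (0.52), and RPIA lower (-0.52). The call of RPIA was lost in 3 of the 6 fits that left out 1 library (adjusted p of up to 0.0832). Of 6 metallothionein-list genes tested (11 listed), MT1X and MT1E rose by 0.86 and 0.41, and MT1A fell by 0.89. The call of MT1E was lost in 2 such fits (up to 0.0591).

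The NRF2 binding motif TGACNNNGC, called the antioxidant response element, was searched in the same windows on both strands. It was present in 4 of 16 listed members with a window (25%) and in 15.2% of all tested genes with one. Of the called members that hold it, GCLM had the largest rise and is shown with the motif in capitals. Its window is chr1:93909381-93909680, minus strand.
GCLM: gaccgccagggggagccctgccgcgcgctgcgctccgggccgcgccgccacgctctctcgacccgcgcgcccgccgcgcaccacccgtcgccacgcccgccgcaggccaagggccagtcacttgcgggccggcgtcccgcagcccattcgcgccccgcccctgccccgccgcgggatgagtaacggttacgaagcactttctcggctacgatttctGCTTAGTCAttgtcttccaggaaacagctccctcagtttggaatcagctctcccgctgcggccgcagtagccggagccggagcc

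**Figure D2:**
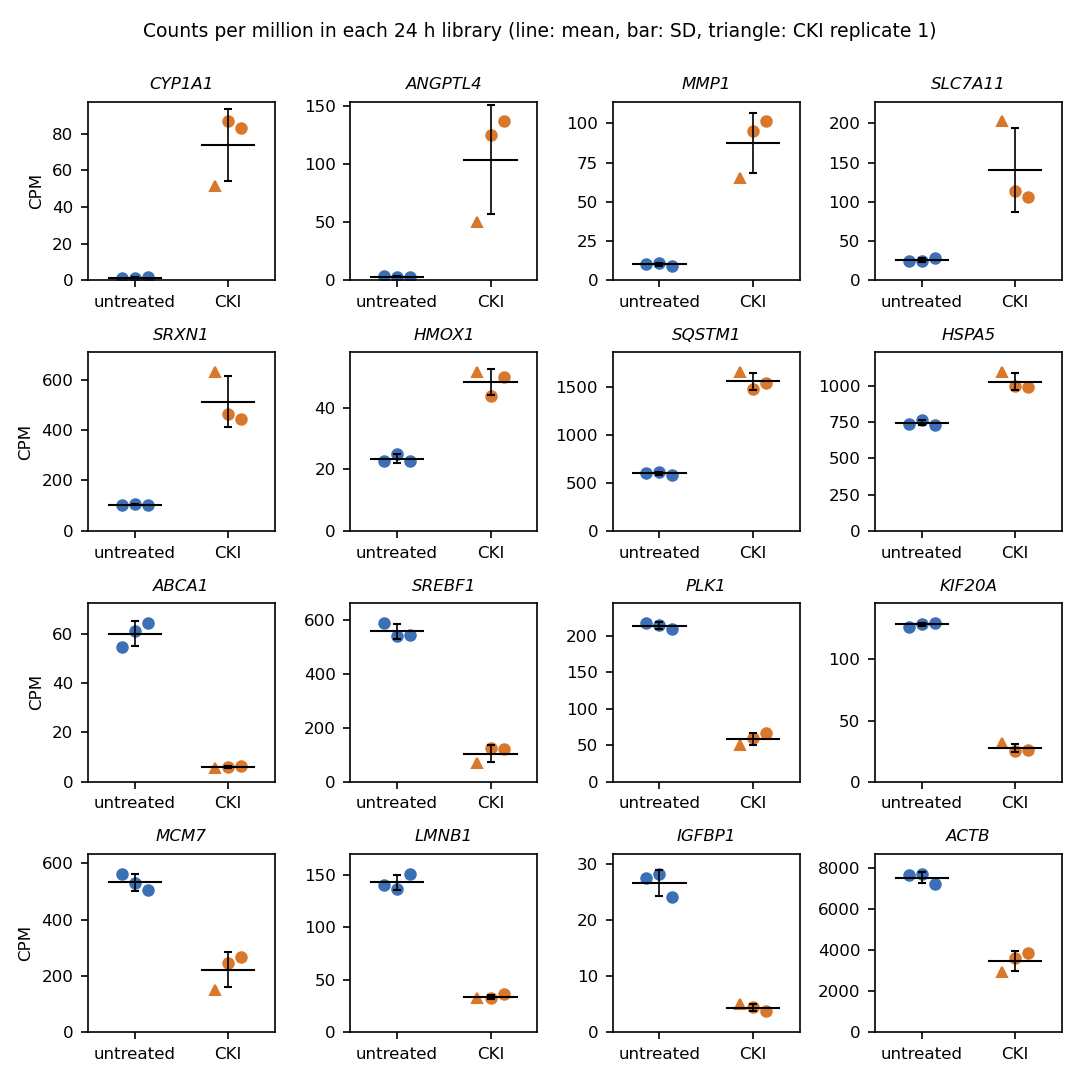
CPM (vertical axes, linear from 0) of 16 genes in each 24 h library, with untreated libraries on the left and CKI libraries on the right of each panel. Lines are means, bars are SD over 3 libraries and the triangle is CKI replicate 1. In all 16 panels the groups do not overlap, which was a condition for most of these genes to be named. Over all genes tested the groups did not overlap in 27% (CKI higher) and 27.2% (CKI lower).

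Transcripts for mitosis fell throughout. All 33 listed mitosis genes were lower with CKI, with log2 fold changes from -2.22 to -0.53 and a median of -1.27, beside 0.01 over all genes and 19.3% of all genes called lower. All 33 were also lower without CKI replicate 1, and in all 33 the groups did not overlap. KIF20A, a kinesin needed for cytokinesis, went from 127, 129 and 130 CPM to 31.7, 25.2 and 25.8 CPM. PLK1, the polo-like kinase of mitotic entry and spindle assembly, went from 218, 215 and 209 CPM to 50.7, 59.2 and 67.0 CPM, a log2 fold change of -1.86 ± 0.11 (SE, adjusted p = 5.88e-05). CDC20, the activator of the anaphase-promoting complex, fell by 1.78 and CCNB1, cyclin B1, by 1.57 on the log2 scale. LMNB1, lamin B1 of the nuclear lamina, was among the 12 largest falls under the rule given above for the largest rises. It went from 140, 137 and 151 CPM to 33.1, 32.4 and 36.2 CPM. In bulk RNA, fewer cells in a phase and less RNA per cell cannot be told apart.

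DNA replication genes fell too, though not all of them. Of 41 tested, 28 fell and none rose, with a median of -0.69, and 34 fell without CKI replicate 1. TYMS, thymidylate synthase, had 128, 122 and 113 CPM without and 23.5, 40.3 and 39.6 CPM with CKI. LIG1, the ligase that joins Okazaki fragments, fell by 1.69 and MCM7, a subunit of the replicative helicase, by 1.26 on the log2 scale. MCM7 is a gene in which CKI replicate 1 was the lowest library, at 152 CPM against 247 and 269 CPM. CDC6, ORC1 and RFC1 were among the 13 members not called, with log2 fold changes of -0.01, 0.18 and 0.18. Of 18 genes of homologous recombination and Fanconi repair 16 fell and none rose, with a median of -0.57. BRIP1, a helicase of this repair, was among them and fell by 0.84.

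Regulators of the G1 phase were mixed. Of 14 CDK inhibitors and G1 cyclins tested (15 listed), 2 rose and 6 fell. CDKN1A, the CDK inhibitor p21, went from 163, 158 and 154 CPM to 370, 249 and 251 CPM, and CCND3, cyclin D3, rose by 0.79. CCND1, cyclin D1, fell by 0.59, and the inhibitors CDKN1C and CDKN2C fell by 1.57 and 1.13 on the log2 scale. The p53 target list that also holds CDKN1A had 4 of 17 genes higher and 5 lower, with a median of -0.11. ZMAT3, an RNA-binding protein, rose by 0.73, and FDXR, a mitochondrial reductase, fell by 0.96. MDM2 and GDF15 were not called, at -0.13 and 0.16. Among 17 apoptosis regulators tested (18 listed), BIRC3, TNFRSF10B and TNFRSF10A rose and FAS, BBC3, BCL2 and PMAIP1 fell, with a median of -0.25. Without CKI replicate 1, 5 of them rose and 7 fell, with a median of -0.11. With all 6 libraries 41.2% of these regulators were called, near the 38.7% of all genes tested. The calls of ZMAT3 and PMAIP1 were lost in 3 and 4 of the 6 fits that left out 1 library, with an adjusted p of up to 0.0782 and 0.15.

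Promoter windows of the mitosis genes are shown because these genes moved together. A pair of short motifs known from cell cycle promoters were searched on both strands, the CHR with the letters TTTGAA and the CCAAT box. The CHR was present in 18 of 27 members with a window (66.7%) and in 9.48% of tested genes with one, and the CCAAT box in 21 of 27 (77.8%) and in 36.2%. Both were present in 15 of 27 (55.6%) and in 3.96%. PLK1 and CDC20 had the largest falls among the members that hold both, which are in capitals below. For DNA replication the letters TTTCGCGC or TTTGGCGC, of the E2F site, were present in 10 of 35 members with a window (28.6%) and in 2.03% of tested genes. Of these members CDC6 and POLA2 were not called and the others were called lower. MCM7 is shown for these (-1.26), though POLE2 fell more (-1.31). The windows are chr16:23678639-23678938 on the plus strand for PLK1, chr1:43358731-43359030 on the plus strand for CDC20 and chr7:100101348-100101647 on the minus strand for MCM7. The letters TCACNCCAC were also searched for the cholesterol list and were present in 1 of 18 members with a window, beside 1.1% of tested genes. For the hypoxia list ACGTG was present in 6 of 14 (42.9%), beside 26.4%. A match is a description of the letters and was not tested as a binding site.
PLK1: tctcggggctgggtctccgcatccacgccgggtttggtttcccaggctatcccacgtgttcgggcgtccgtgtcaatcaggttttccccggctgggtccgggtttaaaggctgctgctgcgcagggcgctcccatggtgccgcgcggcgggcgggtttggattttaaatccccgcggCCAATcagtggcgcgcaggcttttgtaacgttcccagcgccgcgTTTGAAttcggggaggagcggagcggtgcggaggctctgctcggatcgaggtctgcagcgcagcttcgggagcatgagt
CDC20: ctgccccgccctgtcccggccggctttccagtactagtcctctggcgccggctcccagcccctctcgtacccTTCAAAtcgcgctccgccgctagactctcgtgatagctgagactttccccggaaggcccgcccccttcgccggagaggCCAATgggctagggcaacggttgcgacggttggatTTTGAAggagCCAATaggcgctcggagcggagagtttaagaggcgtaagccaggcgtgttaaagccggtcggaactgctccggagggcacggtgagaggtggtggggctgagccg
MCM7: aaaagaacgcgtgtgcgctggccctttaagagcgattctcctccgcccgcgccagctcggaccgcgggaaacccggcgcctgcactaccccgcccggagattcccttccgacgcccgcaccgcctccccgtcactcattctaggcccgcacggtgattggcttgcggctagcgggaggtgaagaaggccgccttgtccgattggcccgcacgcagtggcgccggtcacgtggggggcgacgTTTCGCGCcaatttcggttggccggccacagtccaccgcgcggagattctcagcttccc

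Lipid genes moved in both directions, by pathway. ANGPTL4, a secreted inhibitor of lipoprotein lipase and a PPAR target, was the DE gene with the next largest log2 fold change after CYP1A1, from 3.61, 3.19 and 2.60 CPM to 50.1, 125 and 137 CPM, a log2 fold change of 5.05 ± 0.41 (SE, adjusted p = 0.000161). Of 14 PPAR targets tested (16 listed), 11 rose and HADH fell, with a median of 0.63. PDK4, a kinase that restrains glucose oxidation, rose by 3.31 at a low level, from 0.499, 1.06 and 1.05 CPM to 10.8, 8.40 and 7.37 CPM. PPARA itself rose by 1.34 and CPT1A, which admits fatty acids to mitochondria, by 0.69.

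LXR targets went the other way. ABCA1, the exporter of cholesterol to apolipoproteins, had the largest fall among genes with a mean of 10 CPM or more, from 54.5, 61.4 and 64.5 CPM to 5.58, 5.96 and 6.30 CPM, with a log2 fold change of -3.34 ± 0.11 (SE, adjusted p = 3.07e-05). SREBF1, the master regulator of fatty acid synthesis, went from 588, 538 and 544 CPM to 68.3, 123 and 119 CPM. ABCG1 and MYLIP fell by 2.51 and 1.32, so that 5 of 6 LXR targets were lower, with a median of -1.87. NR1H3, which encodes LXR alpha, was not called, at 0.30. Among 10 fatty acid synthesis genes, which share SREBF1 with the LXR list, 6 fell and 3 rose. SCD and FASN, the desaturase and the synthase, fell by 0.97 and 0.96, and ME1 and ELOVL6 rose by 1.07 and 0.71.

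Cholesterol synthesis differed in direction from both lists. Of 24 genes tested 13 rose and 2 fell, with a median of 0.33, and 18 rose without CKI replicate 1, when the median was 0.47. MSMO1, a sterol demethylating oxidase, had 113, 124 and 109 CPM without and 271, 317 and 309 CPM with CKI. TM7SF2 and SQLE, also enzymes of the sterol branch, rose by 1.28 and 1.21. PMVK, a kinase of the mevalonate pathway, was among those that fell, by 0.70 on the log2 scale. INSIG1 and SREBF2 were not called, at -0.01 and 0.17.

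Most genes of the hypoxia list rose. Of 17 listed, 16 rose with and without CKI replicate 1, with a median of 0.95. NDRG1, a stress-induced gene, went from 259, 261 and 257 CPM to 811, 776 and 747 CPM, and P4HA1, a collagen prolyl hydroxylase, from 62.7, 68.9 and 69.6 CPM to 235, 208 and 189 CPM. VEGFA, the angiogenic factor, rose by 1.28. SLC16A3, a lactate exporter, was the member not called, with 676 CPM in CKI replicate 1 against 966 and 1018 CPM in the other CKI libraries. Glycolysis showed a smaller share, with 8 of 18 genes higher and none lower. ALDOC, the brain-type aldolase, and SLC2A3, a glucose transporter, rose by 1.86 and 1.15. LDHA and SLC2A1, which are widely used as hypoxia genes, were not called, at 0.02 and -0.04. Neither of them was in the hypoxia list, so the share of that list that rose depends on the choice of its members. Of 74 nuclear genes of the respiratory chain tested (75 listed), UQCRH rose and 15 fell, close to the share of all genes called lower (19.3%), with a median of -0.13.

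**Figure D3:**
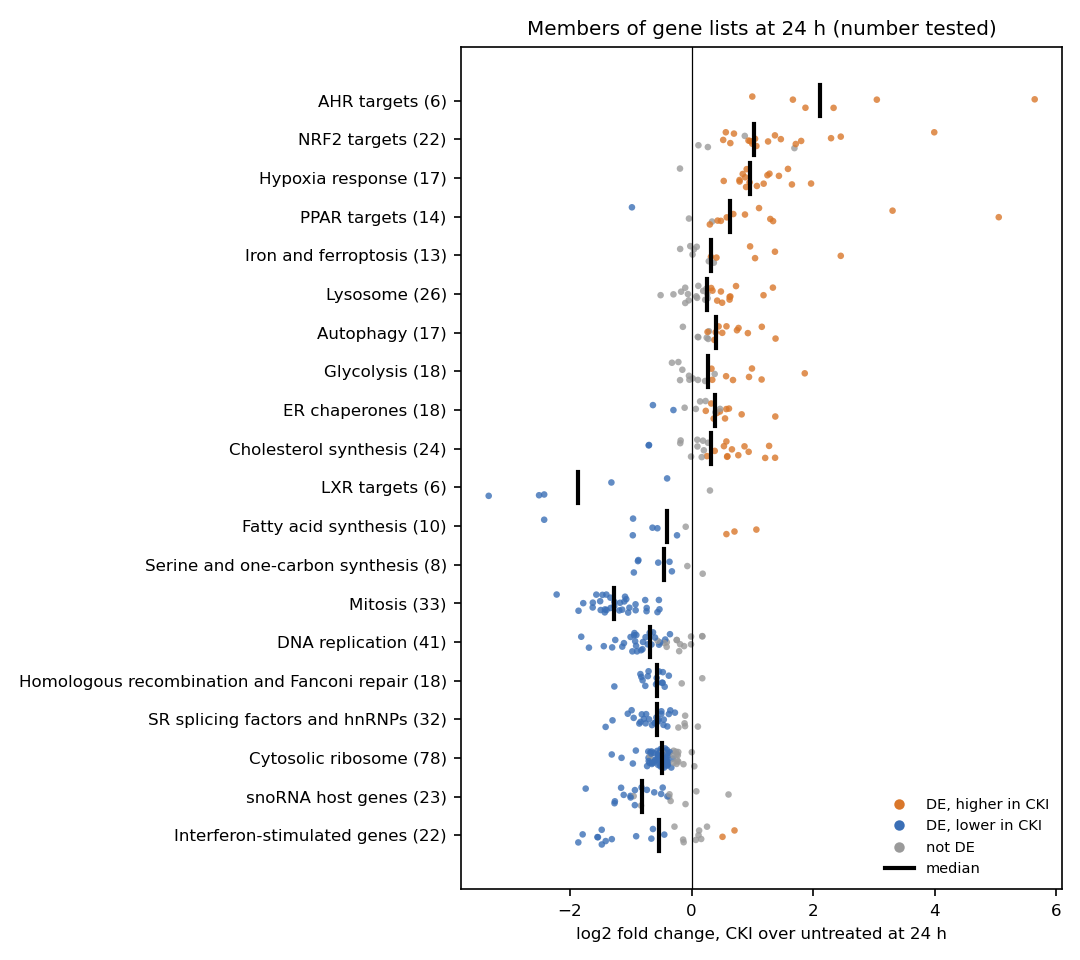
Log2 fold changes (horizontal axis, CKI over untreated at 24 h) of the tested members of 20 gene lists, with the number tested in brackets. Each point is a gene, coloured by whether it was DE and in which direction, and vertical marks are medians. Mitosis genes all lie below 0 and AHR targets all above it, and the medians of the cholesterol and LXR lists lie on opposite sides of 0.

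Genes of the endoplasmic reticulum (ER) stress response showed a modest rise. Of 18 ER chaperones and related genes 10 rose and 2 fell, with a median of 0.38, and 14 rose and 2 fell without CKI replicate 1. HSPA5, the main ER chaperone BiP, had 737, 764 and 730 CPM in untreated and 1093, 1001 and 989 CPM in CKI libraries, a log2 fold change of 0.47 ± 0.08 (SE, adjusted p = 0.00329). DNAJB9, a co-chaperone of BiP, went from 15.8, 17.8 and 17.8 CPM to 54.6, 42.2 and 36.9 CPM, and DNAJC3 rose by 0.82. CRELD2, a secreted ER stress protein, and HSP90B1, another abundant ER chaperone, were called lower, at -0.64 and -0.30, while HERPUD1, CALR and XBP1 were not called. The call was lost in 2 of the 6 fits that left out 1 library for CRELD2 (adjusted p of up to 0.0796) and in 5 of 6 for HSP90B1 (up to 0.13).

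The ER stress element, with the letters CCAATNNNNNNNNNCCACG on both strands, which contains a CCAAT box, was present in 6 of 17 members with a window (35.3%) and in 0.125% of tested genes with one. HSPA5, which rose, and CRELD2, which fell, had the largest absolute log2 fold changes of the called members with the element. Both are shown with it in capitals. The other members that hold it were CANX, called higher (0.42), HSP90B1, called lower (-0.30), and CALR and XBP1, not called. The windows are chr9:125241294-125241593, minus strand, for HSPA5 and chr22:49918384-49918683, plus strand, for CRELD2.
HSPA5: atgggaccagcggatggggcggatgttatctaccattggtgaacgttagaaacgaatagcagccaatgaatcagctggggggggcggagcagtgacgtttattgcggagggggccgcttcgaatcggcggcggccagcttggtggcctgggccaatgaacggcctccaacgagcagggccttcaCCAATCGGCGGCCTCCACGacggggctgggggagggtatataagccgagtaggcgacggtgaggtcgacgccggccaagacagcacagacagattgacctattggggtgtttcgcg
CRELD2: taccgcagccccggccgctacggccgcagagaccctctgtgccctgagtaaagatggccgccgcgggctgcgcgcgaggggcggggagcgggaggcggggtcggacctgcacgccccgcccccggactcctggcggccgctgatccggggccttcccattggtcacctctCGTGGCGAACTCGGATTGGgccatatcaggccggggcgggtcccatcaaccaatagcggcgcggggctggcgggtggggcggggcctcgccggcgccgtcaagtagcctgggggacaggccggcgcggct

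The ATF4 and CHOP list was split. Of its 18 genes 8 rose and 3 fell, with a median of 0.43, and without CKI replicate 1 8 rose and 5 fell, with a median of 0.21. Those that rose included SLC7A11, the receptor gene VLDLR (1.61) and the phosphatase subunit PPP1R15A (0.88), whereas ATF4 itself fell by 0.48 and ATF5 by 1.23. DDIT3, which encodes CHOP, was not called, and its 3 CKI values were 33.4, 15.8 and 15.9 CPM against 17.5, 16.1 and 15.3 CPM. ATF3 was called at 1.71 (adjusted p = 0.0397) with values of 44.8, 11.5 and 10.6 CPM against 5.55, 8.14 and 6.76 CPM, and its log2 fold change was 0.69 without CKI replicate 1. Its call was lost when any of the 3 untreated libraries was left out, with an adjusted p of up to 0.13. Enzymes of serine and one-carbon synthesis fell, 6 of 8 tested (9 listed) with none higher. MTHFD1, a trifunctional folate enzyme, fell by 0.95, and PHGDH, the entry enzyme of serine synthesis, by 0.55. Cytosolic tRNA synthetases went both ways, with 5 of 20 higher, led by MARS (0.44) and CARS (0.43), and 4 lower, led by VARS (-0.62) and FARSB (-0.62). The share called was 45%, near the 38.7% of all genes tested.

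Transcripts of the translation machinery fell. Of 78 cytosolic ribosomal protein genes tested (81 listed), 63 fell and none rose, with a median of -0.48, and 69 fell without CKI replicate 1. RPL10, of the large subunit, had 1144, 1115 and 961 CPM without and 471, 458 and 520 CPM with CKI. RPL13A fell by 1.31 on the log2 scale. Many of these genes have near-identical pseudogenes, so that single values are uncertain. Of 23 ribosome biogenesis genes 14 fell and none rose, with UTP20 and RRS1, nucleolar processing factors, at -1.18 and -1.06, while MYC was not called with 6 libraries, at 255, 153 and 149 CPM against 189, 188 and 192 CPM. Of 23 noncoding hosts of small nucleolar RNAs tested (27 listed), 15 fell and none rose, with a median of -0.82, and 18 fell and 1 rose without CKI replicate 1. SNHG15 and SNHG8 fell by 1.27 and 1.26. The mitochondrial ribosome had 27 of 77 genes lower and MRPL10 higher, with a median of -0.27, and without CKI replicate 1 the numbers were 31 lower and 5 higher. MRPL11 fell by 1.01, and the call of MRPL10 was lost in 2 of 6 fits that left out 1 library (adjusted p of up to 0.073).

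Splicing factors gave a similar count. Of 32 SR proteins and hnRNPs tested (41 listed by symbol), 27 fell and none rose, with a median of -0.58, and 30 fell and 1 rose without CKI replicate 1. HNRNPH1, a splicing repressor, went from 419, 405 and 426 CPM to 230, 193 and 181 CPM, and HNRNPA1, which has many pseudogenes, fell by 1.30. These values are for the whole gene, and no isoform was measured.

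Lysosome and autophagy genes rose in part. Of 26 lysosome genes 11 rose and none was called lower, with a median of 0.25, and without CKI replicate 1 the numbers were 15 and 1. Of 17 autophagy genes 11 rose and none was called lower, with a median of 0.40. SQSTM1, the autophagy receptor p62 and also an NRF2 target, went from 606, 610 and 582 CPM to 1655, 1482 and 1546 CPM, and was among the 5 genes with the largest gain in CPM. GABARAPL1, an autophagosome membrane protein, rose by 1.16, and GLA and NEU1, a lysosomal galactosidase and a sialidase, by 1.34 and 1.18. The proteasome as a whole had 6 of 37 genes higher and 4 lower, with a median of 0.01. This was 27% called, below the 38.7% of all genes tested. Among those lower were PSMB8, PSMB9 and PSMB10, the subunits of the immunoproteasome, at -1.05, -0.83 and -1.53, and among those higher PSMD11 and PSMD3, regulatory subunits, at 0.44 and 0.44. Heat shock chaperones of the cytosol and mitochondria showed 6 of 23 lower (26.1%, beside 19.3% of all genes) and none higher. Without CKI replicate 1, 12 were lower and 1 higher. HSPB1, a small heat shock protein, and HSPE1, a mitochondrial co-chaperonin, fell by 1.17 and 0.52, and HSPA1A and HSPA1B, near-identical copies, were not called.

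Interferon-stimulated genes were mostly lower. Of 22 tested 12 fell and 2 rose, with a median of -0.54. IFIT2, an antiviral RNA-binding protein, went from 82.2, 90.4 and 89.9 CPM to 22.7, 28.5 and 24.6 CPM, and OAS3, an oligoadenylate synthetase, fell by 1.86. IRF7 and IFI6 rose by 0.71 and 0.51. In the MHC class I list 4 of 12 genes fell, 2 of them the immunoproteasome subunits above, and HLA-E and TAP1 rose by 0.45 and 0.33. With 1 library left out, the calls of IFI6 and TAP1 were lost in 2 and 1 of 6 fits, with an adjusted p of up to 0.0764 and 0.0582.

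Cytokines did not move as a block. Of 19 NF-kB and cytokine genes tested (20 listed), 7 rose and 3 fell, with a median of 0.09, and 10 rose and 5 fell without CKI replicate 1, with a median of 0.26. IL11, an IL-6 family cytokine, and BIRC3, an inhibitor of apoptosis, rose by 1.11 and 1.20. At low levels, IL1A rose from 0.333, 0.767 and 1.05 CPM to 4.37, 4.96 and 5.39 CPM, whereas CXCL1, a neutrophil attractant, fell from 5.16, 5.03 and 3.84 CPM to 0.946, 0.840 and 1.07 CPM. IL6 was not called with 6 libraries, and CKI replicate 1 stood at 19.2 CPM beside 4.07 and 5.50 CPM in the others and 19.9 to 20.6 CPM in untreated cells. Without that library IL6 was called lower, at -2.10.

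Among genes of growth factor signalling some values depended on CKI replicate 1. Of 16 immediate early genes tested (17 listed), 5 rose, with a median of 0.64, and without that library 8 rose and 2 fell, with a median of 0.33. Over all genes tested, the share called in each direction also went from 19.3% to 26.5% without it. FOS had 253, 35.1 and 56.6 CPM against 49.3, 59.4 and 58.8 CPM, so that its direction rested on CKI replicate 1, and it was called neither with nor without it. IER3, an ERK-induced survival gene, rose by 1.03 with 6 libraries and by 1.02 without. Of 13 ERK output genes 7 rose and 2 fell, and 8 rose and 3 fell without CKI replicate 1. DUSP5, a phosphatase that inactivates ERK, went from 80.0, 84.6 and 76.6 CPM to 349, 251 and 251 CPM, and SPRY2, a feedback inhibitor, was called lower at -0.34. The call of SPRY2 was lost in 5 of the 6 fits that left out 1 library (adjusted p of up to 0.0923).

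Clock genes changed in both directions, with 6 of 15 tested (16 listed) higher and 4 lower. NR1D1, the repressor REV-ERB alpha, had 10.5, 10.1 and 10.5 CPM without and 31.7, 24.9 and 24.4 CPM with CKI, and BHLHE41 rose by 0.92. PER3 and CRY1, core repressors, fell by 1.23 and 0.46, and the call of CRY1 was lost in 3 of 6 fits that left out 1 library (adjusted p of up to 0.0858).

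Large families named by symbol had genes called in both directions, beside 38.7% of all genes tested called in either direction. The share called was below that in ZNF genes (25.3%), collagens (26.9%), antisense RNAs (27.2%) and LINC genes (32.8%). It was 40% in tubulins, 47.3% in solute carriers and 56.7% in kinesins. Among 458 ZNF zinc finger genes tested (533 listed), 77 rose and 39 fell, with ZNF841 at 1.5 and ZNF618 at -1.53, and without CKI replicate 1 the numbers were 107 and 67. Among 201 solute carriers tested (334 listed), 62 rose and 33 fell, SLC6A6, the taurine transporter, by 1.59, and SLC49A3 fell by 1.24 on the log2 scale. Of 30 kinesins tested (39 listed), 5 rose and 12 fell, and KIF20A and KIF23 of the mitosis list led the latter, whereas KIF3A, a motor of cilia, rose by 0.92. Of 15 tubulins tested (22 listed), TUBA4A rose and 5 fell, TUBA1C and TUBA1B by 0.94 and 0.85. Collagens were mostly not called, with 4 of 26 tested (44 listed) higher and 3 lower, COL17A1 at 1.56 and COL1A2 at -1.91, and 5 each without CKI replicate 1. With 1 library left out, the calls of ZNF841 and TUBA4A were lost in 2 and 4 of 6 fits, with an adjusted p of up to 0.0703 and 0.0773. Among long noncoding RNAs, 38 of 189 LINC genes tested (1649 listed) rose and 24 fell, with LINC01588 at 1.12 and LINC01224 at -1.41. Of 316 antisense RNAs tested (1083 listed), 41 rose and 45 fell, and LRRC75A-AS1 went down by 1.19 in log2 units, but the strand setting of the counting was not given in the sources used here, so reads of an antisense gene and its partner may not be separated.

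Several of the genes with the largest changes stood in none of the lists above. MMP1, the interstitial collagenase, went from 10.4, 10.8 and 9.09 CPM to 65.5, 95.2 and 101 CPM, a log2 fold change of 3.11 ± 0.18 (SE, adjusted p = 5.88e-05). LUCAT1, a long noncoding RNA, rose by 4.06, and its CKI values of 56.4, 29.4 and 28.8 CPM stood far above 2.13 to 2.42 CPM in untreated cells. SPHK1, which makes sphingosine 1-phosphate, rose by 2.24, PANX2, a pannexin channel protein, by 2.31, and FER1L4, TCAF2 and TNXB by 2.63, 2.53 and 2.11. HMGA1, a chromatin protein of high abundance, went from 1575, 1533 and 1473 CPM to 3636, 3343 and 3530 CPM. RNR2, an entry for mitochondrial ribosomal RNA, had the largest gain in CPM, from 4131, 3778 and 3302 CPM to 5495, 7842 and 8612 CPM. The libraries were made from poly(A)-selected RNA, and whether the selection moved with this entry was not tested.

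Among the genes that fell most, CEMIP, which degrades hyaluronan, went from 264, 285 and 323 CPM to 14.1, 58.5 and 47.2 CPM, and its log2 fold change was -2.86 with and -2.45 without CKI replicate 1. IGFBP1, a binding protein of insulin-like growth factors, went from 27.6, 28.4 and 24.1 CPM to 5.00, 4.45 and 3.84 CPM. RCSD1, LGALS12, FST, AQP1, TSPOAP1 and ZBED6CL were the others, with log2 fold changes from -3.11 for RCSD1 to -2.09 for ZBED6CL. FST encodes follistatin, an antagonist of activins, and AQP1 a water channel. The largest losses in CPM were of abundant transcripts, the cytoskeletal genes ACTB, ACTG1 and TMSB4X, the translation elongation factor EEF1A1 and IGFBP4, a secreted binding protein of insulin-like growth factors. The call of IGFBP4 was lost in 2 of the 6 fits that left out 1 library, with an adjusted p of up to 0.0633. ACTB, beta-actin, went from 7703, 7747 and 7222 CPM to 2949, 3623 and 3879 CPM, a log2 fold change of -1.12, and ACTB, ACTG1 and EEF1A1 have pseudogene copies that can take or give reads. VIM, the intermediate filament of mesenchymal cells and a marker of this line, fell by 1.44, and CAV1, of caveolae, by 1.31, whereas FOSL1 rose by 0.63. Of the luminal epithelial markers CLDN4 rose by 0.87 and GATA3 fell by 1.28.

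The effect of CKI at 24 h was compared with that at 48 h in batch 1, each against its own untreated libraries, by the interaction term of a fit over 12 libraries. The effect differed in 232 of 14834 genes, more positive at 48 h in 124 (0.836%) and more negative in 108 (0.728%). Without CKI replicate 1 at 24 h, 1418 of 15012 genes differed, more positive in 639 (4.26%) and more negative in 779 (5.19%), and all 232 were called again in the same direction. The number was 19 without CKI replicate 2 at 48 h. Among the 232, the sign was opposite at the 2 times in 98 genes, and the size was larger at 24 h in 80 and at 48 h in 54.

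HSPA5 had the smallest adjusted p of the 8 genes named for this difference. At 48 h it had 1327, 1252 and 1265 CPM in untreated and 801, 735 and 748 CPM in CKI libraries, so that it was higher with CKI at 24 h and lower at 48 h. The difference of its effects was -1.21 on the log2 scale (adjusted p = 6.49e-05), and it was called in all 12 fits that left out 1 library each. Of the 18 ER chaperones and related genes, 7 had a more negative effect at 48 h and none a more positive one, and the median of their CKI effects was 0.38 log2 units at 24 h and -0.14 at 48 h. Without CKI replicate 1, 14 of the 18 had a more negative effect at 48 h. DNAJB9 was 1.38 log2 units higher with CKI at 24 h and 0.24 at 48 h.

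SLC7A11, the cystine importer, had a smaller effect at 48 h (1.13) than at 24 h (2.45), with an adjusted p of 0.0339 for the difference, which was called in 3 of the 12 fits that left out a library. In the other direction, MMP1 rose by 3.11 at 24 h and by 4.42 at 48 h. ARSA, a lysosomal sulfatase, was at 0.20 at 24 h and 1.41 at 48 h, and the difference was called in all 12 such fits. Neither the mitosis nor the AHR list lost its direction at 48 h, where their medians were -1.08 and 1.99. Of 33 mitosis effects 3 were more positive at 48 h, and 8 without CKI replicate 1, with none more negative. Of 6 AHR effects 1 was more negative and none more positive. Of 22 NRF2 effects 4 were more negative (0.728% of all genes tested), with none more positive. Without CKI replicate 1 the NRF2 number was 9, beside 5.19% of all genes more negative and 4.26% more positive. The median of DNA replication genes went from -0.69 at 24 h to -0.29 at 48 h, with 3 of 41 effects more positive at 48 h. That of homologous recombination and Fanconi repair genes went from -0.57 to -0.11, with 4 of 18 more positive, beside 0.836% of all genes tested. For NF-kB and cytokine genes 3 of 19 effects were more positive at 48 h, and 9 of 19 without CKI replicate 1.

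**Figure D4:**
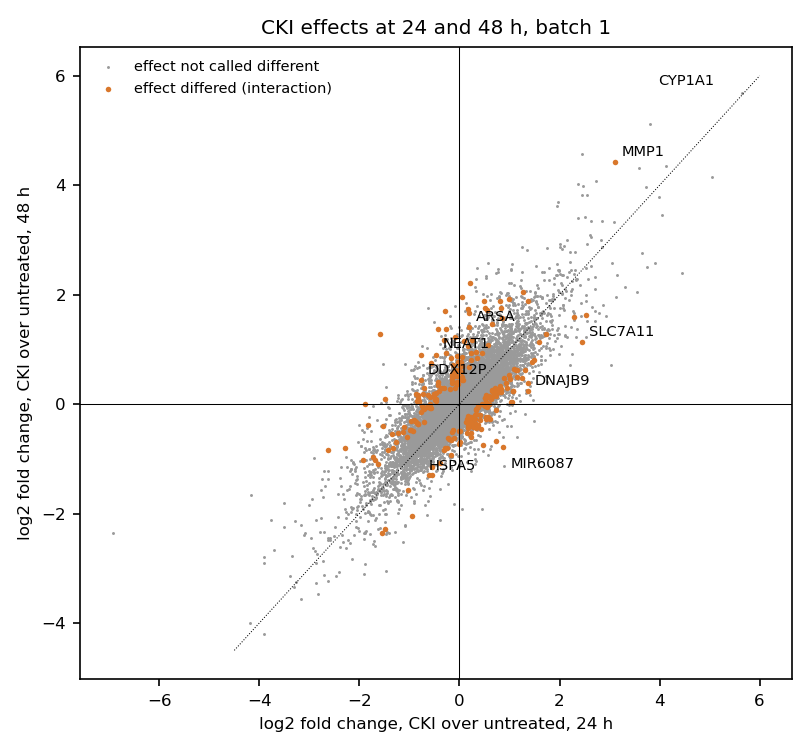
Log2 fold change of CKI over untreated at 24 h (horizontal axis) and at 48 h in batch 1 (vertical axis) for each gene tested at both times, with the line of equality dotted. Orange points are the genes whose effect differed by the interaction test, and 8 of them and CYP1A1 are named. HSPA5 lies to the right of 0 at 24 h and below 0 at 48 h, and MMP1 lies above the line.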

How the data were processed

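The authors deposited 1 table of raw read counts per gene for all 54 libraries, and these counts were used as deposited. Per the submitters' processing notes and labels, poly(A) RNA was sequenced as paired reads, and FastQC 0.11.4, Trim Galore 0.3.7, STAR 2.5.3a, Subread 1.5.2 (featureCounts) and edgeR 3.22.3 were used with hg19. The strand setting of the counting was not given in the sources used here, and neither was the study's own test for DE genes. Columns were matched to samples by the labels, and no column was left unmapped. Here, low genes were removed by filterByExpr, TMM factors were computed and tests were run with edgeR 4.0.16 (R 4.3.3), glmQLFit and glmQLFTest, with 3 CKI and 3 untreated libraries. The prior count of log-CPM was 2. The interaction was fitted over 12 libraries of batch 1. The scripts were checked on simulated counts. Same-group pairs of the 6 libraries at 24 h differed by a chi-square of 3.08 to 56.1 per gene, above sampling noise. Other pairs were not checked.

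The members, gene lists and rules were chosen with earlier results of these data known. Named genes were the 12 with the largest rise and fall among genes whose mean was 10 CPM or more, DE with and without CKI replicate 1, with no overlap between groups, the 5 with the largest gain and loss in CPM among them, up to 2 per list and direction, the 4 at each end of the interaction and the 5 at each end of the deviation of CKI replicate 1. Other genes named were chosen after their values were seen. Lists were written from general knowledge and described by counts and medians, with no set test. Alternatives were RLE scaling, library sizes alone, DESeq2 1.42.0, limma 3.58.1 voom with quality weights, other filters, a fit over all 36 libraries of batch 1, a replicate block and each library left out. The series text calls the replicates biological. Nothing else is stated of the cultures, so that p-values measure the spread between these libraries. The total count per 24 h library was 18649291 to 24122549. Some members of the lists are counted but not reported here by name.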

Additional observations from a re-analysis of the deposited data

Results flagged for a closer look

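The CKI effect differed between 24 and 48 h, by the interaction test over 12 libraries, in 232 genes. The named genes at the ends of this difference follow, as the effect at 48 h minus that at 24 h on the log2 scale, with calls at an adjusted p (Benjamini-Hochberg) of the edgeR quasi-likelihood test. It was 1.38 for NEAT1, a nuclear long noncoding RNA, 1.31 for MMP1, 1.22 for DDX12P, a helicase pseudogene, and 1.21 for ARSA. It was -1.64 for the entry MIR6087, -1.31 for SLC7A11, -1.21 for HSPA5 and -1.13 for DNAJB9. NEAT1 had 428, 369 and 503 CPM in untreated and 406, 295 and 239 CPM in CKI libraries at 24 h, which overlap, and 336, 316 and 285 against 449, 654 and 650 CPM at 48 h. MIR6087 had 340, 407 and 415 against 1025, 542 and 546 CPM at 24 h and 773, 736 and 637 against 466, 369 and 406 CPM at 48 h. In the 12 fits that left out 1 library each, the difference was called in 5 for NEAT1, 8 for MMP1, 3 for DDX12P, 6 for MIR6087 and 3 for SLC7A11, and in all 12 for ARSA, HSPA5 and DNAJB9. Without CKI replicate 1 at 24 h all 8 were called, with differences from -1.29 for MIR6087 to 1.59 for NEAT1. Each time point had its own untreated libraries, and no library of batch 2 was sampled at 24 h.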

How the results depend on the processing

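The 5512 DE genes at 24 h became 8830 with voom quality weights (4393 higher, 4437 lower), 1357 when a change of 1 log2 unit was also required, and 3269 to 7636 with 1 library left out (1552 to 3819 higher, 1717 to 3817 lower), lowest without untreated replicate 2 and highest without CKI replicate 1. The other scalings, filters and tools left the count within 1.5 times. With library sizes alone 55.9% of calls were higher, against 50% with TMM, and the median log2 fold change was 0.07. The 232 genes whose effect differed between 24 and 48 h became 812 with DESeq2, and 19 to 1418 with 1 library left out, lowest without CKI replicate 2 at 48 h and highest without CKI replicate 1 at 24 h. The replicate numbers did not pair the libraries: same-numbered untreated and CKI libraries correlated at -0.18, 0.03 and -0.33 in their deviations. With the replicate block, 3631 genes were DE (1719 higher, 1912 lower), 1247 with a change of 1 log2 unit or more, and 1 interaction gene was left. Of 2282 alternative values of 163 named genes, 2193 kept direction and side of the threshold, 70 no longer passed it, 13 newly passed it and 6 reversed. The reversed values were FOS at -0.44 with voom quality weights and -0.29 without CKI replicate 1, LOC284454 at -0.11 and -0.18 under the same settings, and CST1 at -0.10 with the replicate block and -0.10 without CKI replicate 3. None of the 3 was called with 6 libraries, and with 1 library left out their values ran from -0.29 to 1.47 for FOS, from -0.18 to 1.19 for LOC284454 and from -0.10 to 0.85 for CST1. The cause was not tested. With 3 libraries a group, 1 library could move the spread, and at this depth genes of a few counts were not tested.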

Other observations

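HPDL, a dioxygenase-like enzyme, was at 0.610, 0.767 and 0.731 CPM in the untreated libraries and had no count in the 3 CKI libraries. CDH1, which encodes E-cadherin, was at 5.71, 4.77 and 7.12 CPM without and 0.0901, 0.630 and 0.427 CPM with CKI, and EPCAM, another epithelial adhesion gene, fell by 1.07 on the log2 scale (both DE with and without CKI replicate 1). The luminal epithelial list that holds both had 4 members lower and 2 higher, CLDN4 among the latter at 0.87. EGR2, a zinc finger factor, rose from 0.166, 0.256 and 0.137 CPM to 2.43, 1.60 and 0.907 CPM, without overlap. AKR1B10, an aldo-keto reductase and NRF2 target, rose from 0.555, 1.02 and 0.548 CPM to 10.5, 12.2 and 12.0 CPM. These genes were chosen after their values were seen.

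E2F1, a transcription factor of the G1 to S transition, differed between CKI libraries. Its levels were 207, 207 and 198 CPM in the untreated libraries and 89.9 CPM in CKI replicate 1, but 204 and 211 CPM in CKI replicates 2 and 3. It was not called with or without CKI replicate 1, whereas MCM7 was lower in all 3 CKI libraries.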
